A study of Mus musculus with 8 samples.

Results

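The promoter sites of *Zdbf2*, *Peg12*, *Impact* and *Grb10*, genes at loci that carry a maternal imprint in the mouse, were examined in germline stem (GS) cells. They were chosen by gene name, as every row of the promoter table listed under one of these symbols, and comprised 31 of 203645 cytosines and 4 of 9224 genes. GS cells are cultured spermatogonia, and the lines were derived from CD9-expressing spermatogonia of mature testes of wild-type B6 F1 mice. Control-F1 mice came from natural mating (lines 29, 37, 44 and 45), and ICSI-F1 mice were produced by intracytoplasmic sperm injection (lines 11, 17, 20 and 21), with 4 lines in each group and 1 library per line. All 8 lines grew in a medium with FGF2 and GDNF, and the labels name no other treatment. The line numbers match numbers that the study's supplement gives to single F1 mice, and the p-values measure the spread between lines. Reduced representation bisulfite sequencing reads fragments that the enzyme MspI cuts at CCGG, and the methylation level of a cytosine is the percentage of its reads that stay unconverted by bisulfite.

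At an imprinted locus the parental alleles carry different DNA methylation. Maternal imprints are laid down in the growing oocyte, and the male germline erases them and does not put them back, so spermatogonia and sperm are known to lack them. Paternal imprints, such as those of the *H19*, *Meg3* and *Rasgrf1* regions, are set in the male germline before birth and persist in spermatogonia. *Grb10* encodes an adaptor protein that restrains signalling from the insulin and insulin-like growth factor receptors. *Impact* encodes an inhibitor of the translation-control kinase GCN2, *Zdbf2* a zinc finger protein expressed from the paternal allele, and *Peg12* an intronless relative of the FRAT proteins in the Prader-Willi region.

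The sites lay within 105 bp of the gene starts listed in the table (mm10, GRCm38). The 12 *Zdbf2* cytosines (ENSMUSG00000027520) were both strands of 6 CpGs at chr1:63273199-63273263, in a CpG island 2 to 66 bp upstream of the listed start, and 6 of them also lay in the exon of the miRNA gene *Gm24513* on the opposite strand. The 9 *Peg12* cytosines (ENSMUSG00000070526) belonged to 5 CpGs at chr7:62464511-62464534, in an island shore 1 to 24 bp upstream. The 7 *Impact* cytosines (ENSMUSG00000024423) belonged to 4 CpGs outside any island, 33 to 105 bp upstream. The 3 *Grb10* cytosines (ENSMUSG00000020176) belonged to 2 CpGs at chr11:12038756-12038772, in an island shore 73 to 89 bp upstream.

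The reference sequence around 3 of the loci is printed below to show where CCGG occurs and how the CpGs are spaced. Whether the spacing bears on the levels was not tested. Capitals mark the CpGs that had sites in the table, each sequence runs 5′ to 3′ on the strand of its gene, and all were read from the GRCm38 genome. The *Zdbf2* window is chr1:63273187-63273264 on the plus strand, with 6 CpGs and no CCGG. The *Peg12* window is chr7:62464511-62464620 and the *Grb10* window chr11:12038730-12038829, both on the minus strand and each with 1 CCGG.
Zdbf2: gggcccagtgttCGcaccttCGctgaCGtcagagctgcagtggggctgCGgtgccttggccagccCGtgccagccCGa
Peg12: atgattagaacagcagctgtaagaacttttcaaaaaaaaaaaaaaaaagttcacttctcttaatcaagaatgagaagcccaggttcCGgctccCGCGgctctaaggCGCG
Grb10: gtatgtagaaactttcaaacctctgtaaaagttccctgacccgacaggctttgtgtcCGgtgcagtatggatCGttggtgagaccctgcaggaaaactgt

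These positions do not cover every start of the genes. In GENCODE M21 the *Grb10* sites lay at the start of Grb10-206, whereas the start of Grb10-201 was 1355 bp away, those of Grb10-203, Grb10-207 and Grb10-209 were 10785 to 12432 bp away, and no site of the table lay within 1 kb of any of them. The *Impact* sites lay at the start of Impact-206, and Impact-201 began 16104 bp downstream with no site within 1 kb. The *Zdbf2* sites lay at Zdbf2-202, while the RefSeq start upstream, 72841 bp away, had none. The differentially methylated regions set in the germline at these genes are known to lie at the downstream island promoter of *Grb10*, in the first intron of *Impact* and at the upstream promoter of the long *Zdbf2* transcript, so the levels describe the listed starts and not those regions. *Peg12* has a single start, which its 9 sites adjoined. Whether these 9 sites lie in a region set in the germline was not examined.

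In the RefSeq promoter windows of GRCm38, each 300 bases long, the window at the listed *Zdbf2* start held 38 CpGs and the *Peg12* window 12, against a median of 7 over 32851 windows. TGCCGC, the letters known as the methylated target of ZFP57, was searched on both strands and occurred in 11.6% of the windows. It had 3 matches in the upstream *Zdbf2* window, 1 in the *Grb10* window near Grb10-201, and none in the *Peg12* window, at the listed *Zdbf2* start or in the other *Grb10* window, at the downstream start of Grb10-203, which held 9 CpGs.

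Coverage of the sites was 19 to 172 reads (median 70.5) over the 248 values of 31 cytosines in 8 lines, once the scaling applied by the authors had been undone, and the median over all sites of the table was 41 to 82 reads per line. The lowest counts of methylated reads were mostly even (77.7% to 88.4% of counts from 1 to 10 in the 8 lines), so Wilson 95% intervals were computed on halved reads. They cover counting error only. Of the 248 values, 114 were 0, against 830023 of 1629160 values over all sites, so zeros were not particular to the members. The upper bound of a member value of 0 was 4.48% to 25.9% (median 11.4%), so a site read as 0 may have had a level up to such a bound. Genes of the germ cell list had a median promoter level of 7.14% (16 of 30 genes with sites, from 1.14% at *Gfra1*, the GDNF receptor gene, to 24.1% at *Lin28a*, an RNA-binding protein gene), against 5.64% over all genes, and 3.05% against 2.29% without CpGs inside CCGG. *Gfra1* had 1 site, and *Lin28a* had 2.09% without CpGs inside CCGG. Of the lists for other cells, 3 of 11 feeder fibroblast genes had sites, from 3.04% at *Twist1* to 76.2% at the collagen gene *Col1a2*, and 3 of 6 Sertoli cell genes, from 5.601% at *Sox9* to 94.6% at *Gata4*. By the 20-point rule used to compare the groups, 1 of the 38 sites of the fibroblast list was higher in ICSI-F1 lines, against 0.274% of all sites. The source name and description fields of the labels were written in 2 ways that crossed the groups, and whether they mark sequencing batches is not given in the sources used here. In the lines of the first kind (29, 37, 11 and 17, label set 1) 68.1% to 79.5% of sites outside CCGG were at 0, against 40.4% to 51.6% in the second (44, 45, 20 and 21, label set 2).

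At *Zdbf2* the promoter was nearly free of methylation in all 8 lines. The mean over its 12 sites was 0.357%, 2.50%, 4.56% and 2.26% in control-F1 lines 29, 37, 44 and 45, and 0.225%, 2.50%, 0.758% and 0% in ICSI-F1 lines 11, 17, 20 and 21. Of its 96 values, 65 were 0, against 830023 of 1629160 values over all sites, and in line 21 all 12 sites were at 0. The groups overlapped. The control-F1 mean was 2.42% ± 1.72 (SD, n = 4), that of the ICSI-F1 lines 0.871% ± 1.13 (SD, n = 4), and they were −1.55 points apart, ICSI-F1 minus control-F1 (two-sided exact permutation of lines, p = 0.229, 1 after Benjamini-Hochberg adjustment over all genes, where 4 lines against 4 allow no p below 0.0286). Its highest site was the plus-strand cytosine at chr1:63273252 (mean of 8 lines 4.39%), with 29.2% in control-F1 line 44, 3.74% in line 37, 2.21% in line 17 and 0% in the other 5 lines. The value of line 44 rested on 6 methylated of 22 reads (interval 9.75% to 56.6%), and the minus-strand cytosine of the same CpG had 3.28% in that line. Its lowest site, at chr1:63273207, was at 0 in 7 lines and at 2.21% in line 17. The site at chr1:63273236 had the next largest group difference, with 0%, 3.23%, 6.45% and 10.9% in control-F1 lines and 0%, 3.70%, 0% and 0% in ICSI-F1 lines. *Gm11608*, a gene of the same island whose 11 sites were listed separately, had a mean level of 1.57%.

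*Peg12* was also low in every line, with a slightly higher level than most promoters once CpGs inside CCGG were left out. The mean over its 9 sites was 0.951%, 6.53%, 5.74% and 3.90% in the control-F1 lines (in the order above) and 2.74%, 4.40%, 5.89% and 0.644% in the ICSI-F1 lines. The lowest lines were 29 and 21, 1 from each group, and the groups overlapped. Group means were 4.28% ± 2.48 (SD, n = 4) and 3.42% ± 2.25 (SD, n = 4), a difference of −0.862 percentage points (exact permutation test, p = 0.6). Without the CpG inside CCGG the mean of the 8 lines was 3.73%, above that of 80.2% of promoters measured the same way, whose median was 2.29%. The highest site was the minus-strand cytosine at chr7:62464527, with 14.8% in line 44, 10.5% in line 37, 10.4% in line 17, 6.38% in line 45, 6.09% in line 20 and 0% in lines 29, 11 and 21. The lowest was at chr7:62464524, with a mean of 2.53% and 4 lines at 0. The largest group difference, −4.34 percentage points, was at the cytosine inside CCGG (chr7:62464534), where control-F1 line 37 had 16.7% and the other 7 lines 0% to 5.26%.

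**Figure D1:**
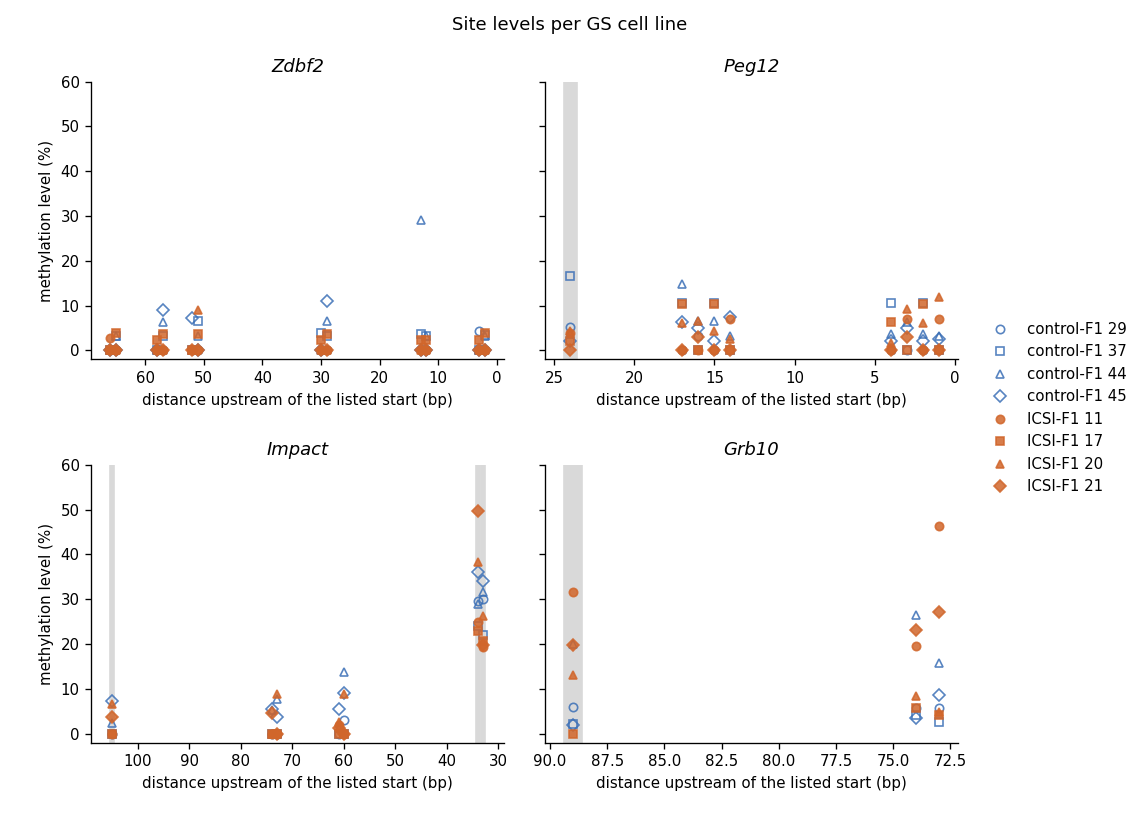
Methylation level (y axis, percent) of each of the 31 cytosines against its distance upstream of the listed gene start (x axis, bp), 1 panel per gene and 1 symbol per GS cell line (open blue, control-F1; filled orange, ICSI-F1). Grey bands mark cytosines inside CCGG; *Zdbf2* and *Peg12* lie at or below 16.7% apart from 29.2% in line 44 at *Zdbf2*, *Impact* is high at the CpG 33 to 34 bp upstream alone, and *Grb10* is spread from 0% to 46.3%.

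*Impact*, with its sites at chr18:12955747-12955819 (mm10), had the clearest contrast within a promoter. The CpG at chr18:12955818 had a mean level of 31.8% on the plus strand and 25.5% on the minus strand, whereas the mean of the other 5 sites was 2.56%. On the plus strand the level was 29.6%, 23.96%, 28.9% and 36.1% in control-F1 lines and 25.0%, 22.8%, 38.4% and 49.6% in ICSI-F1 lines. On the minus strand it was 30.1%, 22.1%, 31.7% and 34.0% in control-F1 lines and 19.4%, 20.6%, 26.3% and 19.7% in ICSI-F1 lines. The CpG was read as partly methylated in all 8 lines and on both strands, while the other 5 sites ranged from 0% in lines 37 and 17 to 6.15% in line 45 as a mean per line. Sites at chr18:12955747, 12955778, 12955779, 12955791 and 12955792 had means of 2.49%, 1.93%, 2.50%, 1.57% and 4.31%. Among these 5, the value furthest from 0 was 13.7%, at 12955792 in line 44.

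This CpG was inside a CCGG, between MspI fragments of 71 and 113 bp. In the whole table, 34804 cytosines inside CCGG had a median level of 19.7%, and 49.4% of them were over 20%. The other 168840 CpG cytosines had a median of 1.95%, with 2.00% over 20%. Where both adjoining fragments were 30 to 400 bp long, as for the *Impact* CpG, the median inside CCGG was 23.6% (19364 cytosines). Where only the fragment starting at the cytosine was that short and the other exceeded 600 bp, as for *Impact* 12955747, *Grb10* 12038772 and *Peg12* 62464534 (2.49%, 11.8% and 4.77%), the median was 5.41% (4449 cytosines). Where only the fragment ending at the cytosine was that short, the median was 96.8% (646 cytosines). Counted here were 5976 promoters with a cytosine inside CCGG and at least 4 sites outside CCGG that averaged under 5%. Of these, 75.5% had their highest cytosine inside CCGG more than 20 points above that average. The *Impact* contrast is thus one that most low promoters of this kind shared. The ends that MspI leaves are commonly filled in with new cytosines when libraries are made. The part of filled-in ends and of fragment position in the 31.8% and 25.5% was not tested, and the values of *Impact* are given with and without these CpGs.

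**Figure D2:**
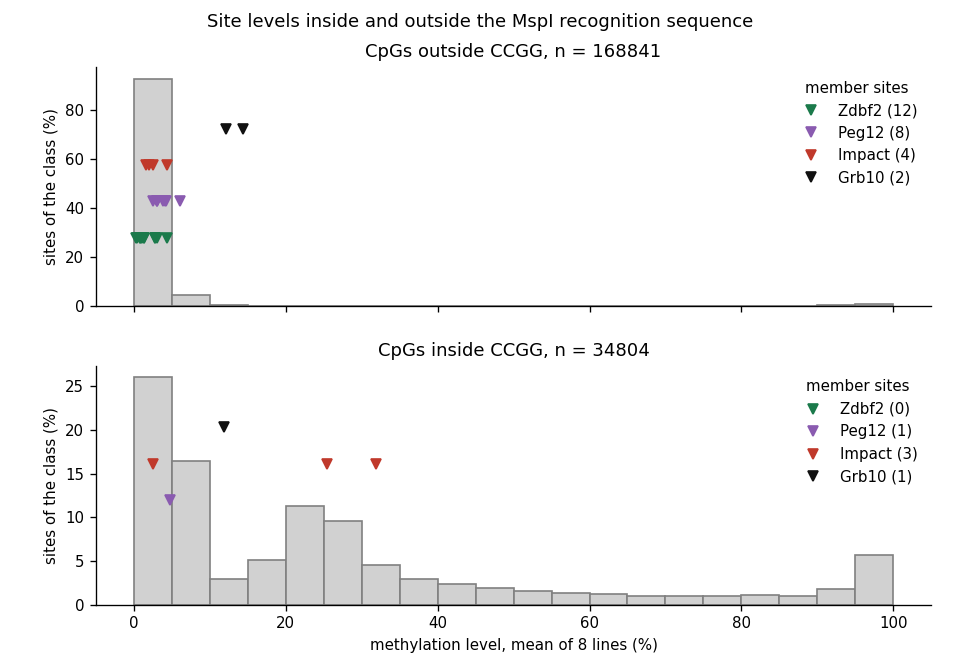
Percentage of cytosines (y axis) by methylation level averaged over 8 lines (x axis, bins of 5 percentage points) outside CCGG (top) and inside CCGG (bottom) in the whole promoter table, with triangles for the member sites at arbitrary heights. Most cytosines outside CCGG lie under 5%, those inside CCGG have a further group near 20% to 30%, and the 2 high *Impact* cytosines fall in it at 25.5% and 31.8%.

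The *Impact* promoter mean was 8.97%, 6.58%, 12.96% and 14.4% in control-F1 lines and 6.63%, 6.20%, 13.1% and 11.3% in ICSI-F1 lines. Group means were 10.7% ± 3.60 (SD, n = 4) and 9.29% ± 3.41 (SD, n = 4), a difference of −1.44 percentage points (exact permutation test, p = 0.6), and without the 3 cytosines inside CCGG they were 3.40% ± 3.52 and 1.75% ± 2.27. The higher values were not those of a group but of label set 2, whose 4 lines (mean 12.9%) lay above the 4 lines of label set 1 (mean 7.10%) without overlap. The same separation held for 27.7% of all promoters, and the opposite one for 0.152%. Within label sets the difference between ICSI-F1 and control-F1 lines was −1.36 and −1.52 percentage points. In ICSI-F1 line 21 the strands of the CpG at chr18:12955818 differed, at 49.6% and 19.7% (Fisher's exact test on halved reads, p = 0.000408, 0.0457 after adjustment over 112 comparisons of strands), which compares strands within that library only.

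*Grb10* stood apart from the other 3 genes by its spread between lines. Its promoter mean was 5.82%, 3.02%, 20.7% and 4.62% in control-F1 lines 29, 37, 44 and 45, and 32.5%, 3.23%, 8.76% and 23.4% in ICSI-F1 lines 11, 17, 20 and 21. Lines 11, 21 and 44 were thus high, 1 of them a control-F1 line. Lines 37 and 17 were lowest, 1 from each group, followed by control-F1 lines 45 and 29. Group means were 8.55% ± 8.21 (SD, n = 4) and 16.96% ± 13.4 (SD, n = 4), and their difference of 8.41 points did not exceed the line-to-line spread (exact permutation test, p = 0.229, 1 after adjustment over all genes). In absolute size this difference was above that of 96.4% of promoters. Without ICSI-F1 line 11 it was 3.24 points and without ICSI-F1 line 17 it was 12.99 points, while within label sets 1 and 2 it was 13.4 and 3.39 points.

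The 3 *Grb10* cytosines gave the same 3 high lines. At chr11:12038756 on the plus strand the level was 5.83%, 2.67%, 15.7% and 8.51% in control-F1 lines and 46.3%, 4.07%, 4.81% and 27.2% in ICSI-F1 lines. At chr11:12038757, its minus-strand partner, it was 5.65%, 4.17%, 26.5% and 3.51% in control-F1 lines and 19.6%, 5.63%, 8.39% and 23.1% in ICSI-F1 lines. At chr11:12038772, inside CCGG, it was 5.98%, 2.22%, 20% and 1.83% in control-F1 lines and 31.6%, 0%, 13.1% and 19.8% in ICSI-F1 lines. Neighbouring cytosines of a strand are read on the same molecules, so these values are not independent. At 12038756 the interval of line 11 (31.7% to 59.9%) did not overlap those of lines 29, 37, 44, 45, 17 and 20 (upper bounds 12.9% to 28.2%). This separation depended on the site. At 12038757 the interval of line 11 (10.7% to 33.2%) overlapped those of all other lines. At 12038772 the interval of line 11 (19.1% to 44.8%) overlapped those of the other high lines and line 20. It did not overlap those of lines 29, 37, 45 and 17 there (upper bounds 9.77% to 16.1%). The strands of the CpG at 12038756 had 46.3% and 19.6% in line 11 (Fisher's exact test on halved reads, p = 0.0127, 0.38 after adjustment). A gap between strands of over 20 points in at least 1 line was found at 47.7% of 2096 CpGs outside CCGG with a mean level of 5% to 40%. The SD of the *Grb10* promoter over 8 lines was 11.2 percentage points, against a median of 2.65 among 1707 promoters with a mean of 8% to 25%. These had at least 3 sites and were not matched to *Grb10* by number of sites. Without CpGs inside CCGG the SD of *Grb10* was 11.4, against 7.15 among 213 promoters of that range with at least 2 sites. Of these, 75.6% had a smaller SD, so the spread of *Grb10* was less unusual there. The *Meg3* promoter, with 17 sites, was also widely spread, with an SD of 10.2 points and lines from 9.99% to 40.3%.

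**Figure D3:**
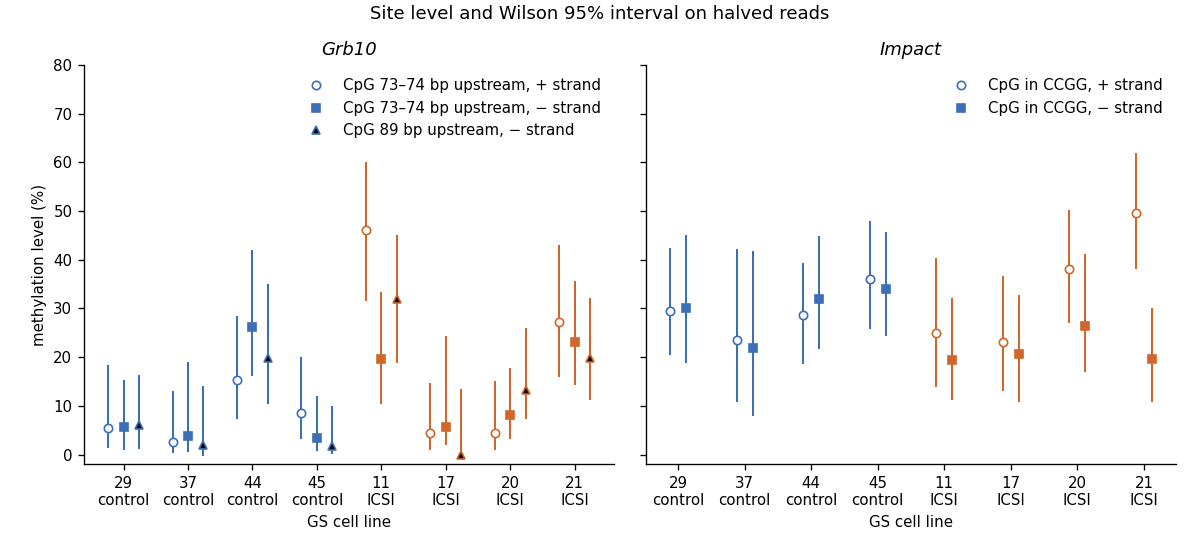
Methylation level (y axis, percent) in each GS cell line (x axis; blue, control-F1; orange, ICSI-F1) at the 3 *Grb10* cytosines (left) and the 2 *Impact* cytosines of the CpG 33 to 34 bp upstream (right), computed from reads with the scaling undone, with Wilson 95% intervals on halved reads as vertical lines. Lines 44, 11 and 21 are high at *Grb10*, whereas all 8 lines lie between 19% and 50% at *Impact*.

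No member site was called different between ICSI-F1 and control-F1 GS cells. The 20-point rule asked for a mean difference over 20 percentage points with every ICSI-F1 line on that side of the control-F1 mean, which is 1 reading of the study's exclusion of sites where a sample changed the other way. By it 0 of 31 sites were higher and 0 were lower, against 0.274% and 0.0506% of all sites. By the stricter reading, with every ICSI-F1 line beyond every control-F1 line, 0 were again higher and 0 lower, against 0.0673% and 0.00884% of all sites. The groups were free of overlap at 0 member sites in either direction, against 0.427% (ICSI-F1 higher) and 0.679% (ICSI-F1 lower) of all sites. At shares this small, 31 sites of the table would mostly give 0 as well, so these zeros are not particular to the members. Apart from the *Impact* CpG at chr18:12955818, no member site had a control-F1 mean over 20%. A fall past the 20-point rule could therefore not occur at the other sites. Of the 31 sites, 11 had a higher and 20 a lower mean in ICSI-F1 lines, with a median difference of −0.621 percentage points, against −0.205 over all sites. All 3 *Grb10* sites were among the 11, and only 1 member site, *Grb10* 12038756, had a group difference over 10 points (12.4), against 2.21% of all sites. In a logistic model with the dispersion moderated across sites, 3 of 31 member sites had an unadjusted p under 0.05, *Grb10* 12038756 and 12038772 and *Impact* 12955819, against 7.06% of the 196818 sites that varied, and 0 passed a false discovery rate of 0.05 (smallest adjusted p 0.702). With the label set as a covariate the count was also 0. In simulated data of this comparison on 203645 sites the moderated model recovered 30% of sites raised by 20 percentage points and 100% of those raised by 40. The model with the covariate recovered 16% and 90%, and the 12.4 points at *Grb10* were below both sizes. The simulation used 1 common spread between lines and raised only partly methylated sites, so these shares do not give the recovery at the members. Fitted alone, the dispersion of the *Grb10* sites was 17.6, 10.2 and 10.7. By the promoter test, 1.46% of genes had p under 0.05 and none of the members did.

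The members were set against the promoters of paternally methylated loci read in the same libraries. The comparator sites, too, lay within 1 kb upstream of listed gene starts. Their levels describe those promoters, and whether they cover the regions methylated in the male germline was not examined. *H19*, a growth-restraining noncoding RNA gene, had a mean level of 40.2% over the 8 lines and *Meg3*, a noncoding RNA gene of the *Dlk1* region, 19.1%. These means lay above those of 88.8% and 83.9% of all promoters, so a lower mean was not particular to the members. By the mean of site levels, all 4 members lay below *H19* in 8 of 8 lines, with differences of −38.5 percentage points for *Zdbf2*, −36.3 for *Peg12*, −30.1 for *Impact* and −27.4 for *Grb10* (exact paired permutation test, p = 0.0078, the smallest that 8 lines allow, 0.0139 after adjustment over 16 pairs). Without CpGs inside CCGG the members remained below *H19*, in 8 of 8 lines for *Zdbf2*, *Peg12* and *Impact* and in 7 of 8 for *Grb10*. With the reads of each promoter pooled over its sites, *Grb10* lay below *H19* in 6 of 8 lines, by −17.5 points on average (exact paired test, adjusted p = 0.075), with 32.4% against 27.8% in line 11 and 23.0% against 15.3% in line 21. The other 3 members lay below *H19* in 8 of 8 lines by that measure too. Against *Meg3*, *Zdbf2* and *Peg12* were lower in 8 of 8 lines, with differences of −17.5 and −15.3 points (exact paired test, adjusted p = 0.0139), and *Impact* in 7 of 8, with −9.12 points (exact paired test, adjusted p = 0.0417). The call for *Impact* rested on single lines, since without line 29, 37, 11, 17 or 21 the unadjusted exact p was 0.0625, and with pooled reads it was lower in 5 of 8 lines (exact paired test, adjusted p = 0.223). For *Grb10* the difference of −6.37 points was within the spread between lines (lower in 5 of 8 lines, exact paired test, adjusted p = 0.42). Without CpGs inside CCGG only *Zdbf2* still passed against *Meg3* (−9.41 points, exact paired test, adjusted p = 0.0357).

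*Rasgrf1*, a nucleotide exchange factor gene, and *Dio3*, the thyroid hormone deiodinase gene, had promoter levels of 4.19% and 3.76%. *Zdbf2* was below both (−2.54 and −2.12 points, exact paired test, adjusted p = 0.025 and 0.0139). *Peg12* did not differ from either beyond the spread between lines, and *Impact* was above both in 8 of 8 lines (by 5.82 and 6.25 points, exact paired test, adjusted p = 0.0139). *Grb10* was above *Dio3* in 7 of 8 lines (by 8.99 points, exact paired test, adjusted p = 0.0341) and above *Rasgrf1* in 6 of 8 (by 8.57 points, exact paired test, adjusted p = 0.0577), and with pooled reads neither passed (exact paired test, adjusted p = 0.0795 and 0.163). Without CpGs inside CCGG, *Zdbf2* and *Impact* no longer differed from either beyond the spread between lines. *Grb10* was then above both in 8 of 8 lines (by 11.8 and 11.7 points, exact paired test, adjusted p = 0.025). *Peg12* was then 2.31 and 2.23 points above *Rasgrf1* and *Dio3* (exact paired test, adjusted p = 0.0833 and 0.0625). The order of levels outside CCGG was *Rasgrf1* (1.42%), *Dio3* (1.501%), *Zdbf2* (1.65%), *Impact* (2.58%), *Peg12* (3.73%), *Meg3* (11.1%), *Grb10* (13.2%) and *H19* (33.1%).

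**Figure D4:**
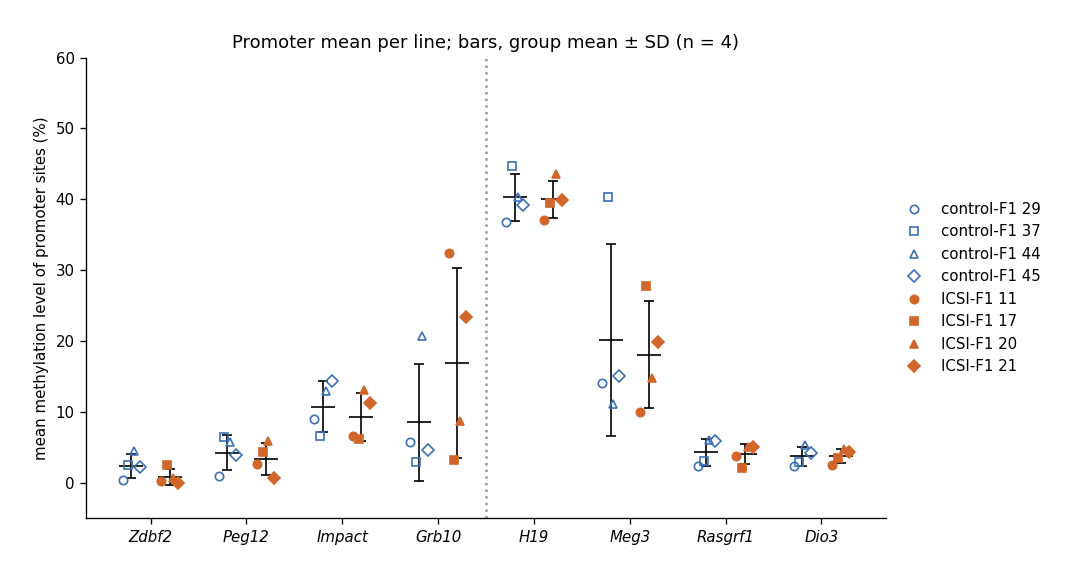
Mean methylation level of the promoter sites (y axis, percent) of the 4 members and, right of the dotted line, 4 genes of paternally methylated loci, in each GS cell line (symbols), with the group mean ± SD (black, n = 4). *Zdbf2* and *Peg12* stay under 7%, *Grb10* spans 3.02% to 32.5%, and all members lie below *H19* (36.9% to 44.7%) in each line by this mean of site levels.

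Among 38 listed genes of maternally methylated loci, 9 had sites in the table (68 sites), and none of these sites was called by the 20-point rule. Their median promoter level was 3.85%, from 0.924% at *Herc3*, a ubiquitin ligase gene, to 53.9% at *Blcap*, the host gene of the imprinted *Nnat*, where 2 sites were read, and without CpGs inside CCGG the median was 2.34% and *Blcap* had 27.6%. Of 9 listed genes of paternally methylated loci, 4 had sites, and 1 of their 142 sites, at *Dio3*, was higher in ICSI-F1 lines, against 0.274% of all sites. Of 18 listed genes that set or protect imprints, 5 had sites, none of them called, with levels of 2.87% at *Zfp445*, a zinc finger gene that guards imprints, to 14.5% at *Uhrf1*, a cofactor of maintenance methylation. Without CpGs inside CCGG these 5 ranged from 1.43% to 2.91%, with 2.47% at *Uhrf1*. The promoters whose mean followed that of a member most closely over the 8 lines were *Slc7a11* and *Gnl3l* for *Zdbf2* (Pearson's r 0.965 and 0.956), *Vill* and *Gm35097* for *Peg12* (0.925 and 0.916), *Skor1* and *Plekhd1os* for *Impact* (0.991 and 0.986), and *Rbms3* and *Bcas2* for *Grb10* (0.960 and 0.921). They were picked from 8172 promoters in 8 libraries that share depth and label set, and are given as a description.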

How the data were processed

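DNA of 8 GS cell lines was digested with MspI, bisulfite-treated and sequenced. Per the labels, the authors trimmed reads with Trim Galore 0.5.0, used Bismark 0.20.0 for alignment to mm10, and called levels with methylKit 1.16.0. The deposited table lists methylated and unmethylated reads per promoter cytosine, scaled between lines by the authors, so each value is a score rather than a raw count. Every line had at least 10 unscaled reads at every site. Sites within 1 kb upstream of a gene start were listed, with strands kept separate.

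Levels were methylated reads over all reads, averaged over sites per line and then over lines. Promoter means were compared with an exact two-sided permutation test (70 arrangements) with Benjamini-Hochberg adjustment over all 9224 genes, and sites with a quasi-binomial logistic model, its dispersion moderated by limma 3.58.1, and a 20-point rule. The planned read counts turned out to be scaled, and the group tests were kept and run on the scaled reads. The logistic model thus counted more reads than were sequenced in the scaled lines, by a factor of up to 1.875 (line 37). Scaling was undone only for coverage, intervals, strand tests, pooled levels of single lines and an alternative of the promoter test. Members were compared with paternal loci by exact sign changes within lines (256 patterns). Scripts used Python 3.11.15 and were tested on simulated data. Starts came from GENCODE M21 and RefSeq, sequences from the GRCm38 genome with samtools 1.23.1. The label sets were read from how the source name and description fields were filled in, and whether they were sequenced apart is not given in the sources used here. Named genes were all members with every site where up to 8 were listed, otherwise the highest, the lowest and the 2 with the largest group differences, plus comparators, the 2 most alike promoters per member, and called or extreme genes of the lists. The members, lists and rules were chosen with earlier results of these data known. Leaving out CpGs inside CCGG was chosen after seeing the data, as were leaving out each line and pooling reads over sites in the comparison with paternal loci.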

Additional observations from a re-analysis of the deposited data

Results flagged for a closer look

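The values below stood apart from the other 3 lines of their group by Dixon's ratio, which was computed for promoter means and named sites in 39 groups of 4 lines. It picked out 9, where chance gives about 1 in 20 groups, and 6 of the 9 arose because the other 3 lines were at 0. The promoter mean of *Grb10* was 20.7% in control-F1 line 44, against 3.02% to 5.82% in the other control-F1 lines, and its site at chr11:12038757 had 26.5% in that line against 3.51% to 5.65%. ICSI-F1 lines 11 and 21 had similar *Grb10* levels and are in the other group. The *Zdbf2* site at chr1:63273252 had 29.2% in control-F1 line 44, against 0% to 3.74%. With the other 3 ICSI-F1 lines at 0, ICSI-F1 line 17 had 2.21% at the *Zdbf2* sites at chr1:63273252 and chr1:63273207 and 3.70% at chr1:63273236. In the same way the *Impact* sites had 4.71% at chr18:12955778 in ICSI-F1 line 21, and 8.74% at chr18:12955779 and at chr18:12955792 in ICSI-F1 line 20.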

How the results depend on the processing

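The promoter differences of *Zdbf2*, *Impact* and *Grb10* kept their direction under all 19 alternatives (pooled reads, minimums of 20 and 30 reads, merged strands, medians, 1 label set, permutation within sets, unscaled reads, limma on log odds, no CpGs inside CCGG, each line left out), and none passed a test. That of *Peg12* did so except without ICSI-F1 line 21 (0.0626 points), with a range of −1.97 to 0.0626 when lines were left out. Some alternatives could not change these differences. Permutation within sets alters only the p-value, the read minimums removed no *Peg12*, *Impact* or *Grb10* site, and *Zdbf2* has no CpG inside CCGG. Other alternatives could not pass. Neither 1 label set, with 2 lines per group, nor permutation within sets allows an exact p under 0.05. Member sites called by the 20-point rule numbered 0 under each alternative. Of all sites, 557 and 103 were higher and lower by the reading used in the report. These counts were 1713 and 1057 at 10 points, 141 and 30 at 30 points, 137 and 18 by the stricter reading with no overlap of groups, 271 and 62 without CpGs inside CCGG, and 408 to 1109 (most without control-F1 line 44) and 112 to 188 (most without control-F1 line 37) with a line left out. The model then gave 0 to 70 sites, 70 without control-F1 line 44.

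Without CpGs inside CCGG, 9 of the 16 comparisons with paternal loci changed direction or call, here by the unadjusted exact p (for *Grb10* against *Rasgrf1* exact p = 0.0469 unadjusted, 0.0577 adjusted). *Zdbf2* was 0.223 and 0.145 points above *Rasgrf1* and *Dio3*, *Peg12* 2.31 and 2.23 above them (exact p = 0.0469 and 0.0312), and *Impact* 1.15 and 1.08 above them. Against *Meg3* the differences were −7.32 for *Peg12*, −8.48 for *Impact* and 2.17 for *Grb10*. With a line left out, *Peg12* ranged from −0.884 to 0.246 against *Rasgrf1* and from −0.407 to 0.637 against *Dio3*. *Impact* ranged from −10.7 to −5.61 against *Meg3* and *Grb10* from 5.70 to 9.97 against *Rasgrf1*, both no longer under 0.05 without some lines. Each of the *Peg12* reversals (0.246 without line 21 against *Rasgrf1*, and −0.407, −0.0386 and −0.0699 without lines 37, 17 and 20 against *Dio3*) was within the spread between lines. With reads pooled over sites, *Peg12* was −0.681 points from *Dio3*, and 3 differences no longer passed (*Impact* −6.00 from *Meg3*, *Grb10* 6.86 from *Rasgrf1* and 8.45 from *Dio3*). The causes were not tested. No paired analysis was possible because the groups share no line numbers. At a member site read as 0, depth allowed a level of up to 11.4% (median upper bound).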
